A study of Mus musculus with 6 samples.

Results

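The 9 heat shock genes Hspa1a, Hspa1b, Hspa8, Hsp90aa1, Hsp90ab1, Hsph1, Dnajb1, Dnaja4 and Hspe1 were followed across single wells of mouse pancreatic islets. They were taken by symbol from the 52542 gene rows of 6 plate tables, and all 9 were present. Islets of male Sox9-CreER; tdTomato mice were sorted into 384-well plates and measured by MARS-seq, a method that counts molecules from the 3′ ends of mRNA with unique molecular identifiers (UMIs). All mice had received tamoxifen (8 mg) from the age of 10 weeks, so that cells with active Sox9 and their descendants carry the red reporter, and were operated at 12 weeks; islets were taken 4 weeks later. The 3 sham plates came from sham-operated mice and the 3 ppx plates from mice after partial pancreatectomy, the surgical removal of some pancreatic tissue. Plates sham 1 and ppx 1 held tomato-positive cells, sham 2 held both kinds, and sham 3, ppx 2 and ppx 3 held tomato-negative cells. The labels do not tie plates to animals, so p-values measure the spread between plates.

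Heat shock proteins keep other proteins folded. Under stress the factor HSF1 binds heat shock elements, inverted repeats of GAA, and switches on the inducible members. Hspa1a and Hspa1b encode the inducible HSP70, Dnajb1 and Dnaja4 encode J-domain partners that feed clients to HSP70, Hsph1 encodes a nucleotide exchange factor for it, and Hsp90aa1 encodes the inducible HSP90. Hspa8 and Hsp90ab1 encode the constitutive HSP70 and HSP90. Hspe1 was listed with the cytosolic genes, but its protein is the lid of the mitochondrial chaperonin. Tissue digestion and cell sorting are known to switch on HSP70 and immediate early genes in many cell types; the plates carry no comparison that separates those steps.

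The promoters are shown because the inducible members differ in exact letter matches to the heat shock element near their starts. RefSeq's table (GRCm38.p6, 250 bases before to 50 after a start) held 6 of the 9 members; Hspa8, Hsp90aa1 and Hsp90ab1 were not matched. Capitals mark matches to the 2-unit element (TTCNNGAA or GAANNTTC) or to the 3-unit element, which is GAANNTTC followed by NNGAA and so holds 2-unit matches inside it; both strands were searched.
Hspa1a: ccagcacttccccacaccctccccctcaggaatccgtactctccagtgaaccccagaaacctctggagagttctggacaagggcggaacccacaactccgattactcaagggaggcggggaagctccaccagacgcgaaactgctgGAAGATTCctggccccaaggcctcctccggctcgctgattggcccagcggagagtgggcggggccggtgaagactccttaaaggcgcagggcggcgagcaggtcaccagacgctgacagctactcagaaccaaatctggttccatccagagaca
Hspa1b: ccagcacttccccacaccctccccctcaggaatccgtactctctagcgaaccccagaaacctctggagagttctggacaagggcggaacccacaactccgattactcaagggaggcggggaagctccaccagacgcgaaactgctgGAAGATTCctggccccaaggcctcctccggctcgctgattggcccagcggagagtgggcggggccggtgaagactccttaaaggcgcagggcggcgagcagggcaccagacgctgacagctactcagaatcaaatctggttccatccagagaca
Dnajb1: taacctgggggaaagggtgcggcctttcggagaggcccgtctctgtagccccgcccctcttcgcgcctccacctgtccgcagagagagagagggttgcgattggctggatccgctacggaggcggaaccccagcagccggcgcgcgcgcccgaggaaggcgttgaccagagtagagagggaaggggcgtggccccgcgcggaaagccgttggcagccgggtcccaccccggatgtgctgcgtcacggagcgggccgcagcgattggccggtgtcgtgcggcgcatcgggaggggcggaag
Dnaja4: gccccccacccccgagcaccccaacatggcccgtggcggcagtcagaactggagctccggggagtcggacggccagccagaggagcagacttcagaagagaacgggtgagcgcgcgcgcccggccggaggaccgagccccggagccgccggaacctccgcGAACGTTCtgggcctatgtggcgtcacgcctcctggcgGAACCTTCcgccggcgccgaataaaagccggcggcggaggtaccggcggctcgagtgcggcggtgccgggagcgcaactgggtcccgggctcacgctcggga
Hsph1: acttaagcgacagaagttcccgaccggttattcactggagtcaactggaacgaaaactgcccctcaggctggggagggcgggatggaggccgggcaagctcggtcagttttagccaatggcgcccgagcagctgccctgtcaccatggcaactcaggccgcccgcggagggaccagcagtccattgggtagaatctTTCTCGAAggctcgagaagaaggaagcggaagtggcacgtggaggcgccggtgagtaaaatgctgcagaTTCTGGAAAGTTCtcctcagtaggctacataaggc
Hspe1: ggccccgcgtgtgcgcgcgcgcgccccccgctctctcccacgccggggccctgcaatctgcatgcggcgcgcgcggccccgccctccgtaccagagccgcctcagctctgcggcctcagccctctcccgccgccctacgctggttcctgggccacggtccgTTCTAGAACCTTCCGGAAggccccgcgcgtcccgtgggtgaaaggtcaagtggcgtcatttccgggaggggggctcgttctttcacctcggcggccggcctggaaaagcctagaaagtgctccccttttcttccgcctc
They lie at chr17:34972107-34972406, minus strand (Hspa1a), chr17:34959189-34959488, minus strand (Hspa1b), chr8:83607925-83608224, plus strand (Dnajb1), chr9:54699309-54699608, plus strand (Dnaja4), chr5:149636266-149636565, minus strand (Hsph1) and chr1:55087898-55088197, plus strand (Hspe1). The 3-unit element was found in 0.603% of 32851 promoters of this length and the 2-unit element in 15.1%. Hspe1 held 2 overlapping 3-unit matches, the first beginning 89 bases before the start. The Hsph1 window shown held 1 that begins at base 16 of the transcript. From the other Hsph1 start listed, whose window is not shown, the same match begins at base 37. Hspa1a and Hspa1b held the same 2-unit match 104 bases before their starts, and their windows differed at 4 of 300 positions. The Dnaja4 window shown held 2 matches of the 2-unit kind, at 90 and 52 bases before the start, and neither Dnajb1 window held any. These are exact letter matches and were not tested for binding. Elements that depart from these letters were not searched for, so a window without a match may still hold one.

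Hspa1a and Hspa1b are neighbouring copies on chromosome 17, and their rows are uncertain to the extent that reads were split between them. Their longest transcripts had 2576 identical and 135 different bases where aligned without gaps. The last 300 bases of the Hspa1b transcript, nearest the counted end, had 210 identical, 70 different and 20 gapped positions against Hspa1a. The Hspa8 row is uncertain for another reason. A small nucleolar RNA, Snord14d (chr9:40803995-40804080, plus strand, mm10), lies in an Hspa8 intron, and its row held 7084 UMIs against 1005 for Hspa8. In insulin-only wells Snord14d exceeded Hspa8 by 5.31 to 8.60 times on the 6 plates. The Wdr61 row, on the opposite strand at the end of Dnaja4, held 385 UMIs against 945, and the Hspd1 row, which shares its start region with Hspe1 on the opposite strand, held 651 against 1579.

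Of 2304 wells, 2115 passed the filters, with median depths of 1954.5 to 3929 UMIs per plate. Wells were grouped by hormone: 1031 held insulin only, 158 glucagon only and 536 somatostatin only, which correspond to the beta, alpha and delta cells of the islet. Summed beta markers reached 223175 to 325993 CPM (UMIs scaled to one common total for each plate and group) in insulin-only wells, and alpha markers 231893 to 334820.5 in glucagon-only wells. Delta markers reached 77803 to 196293 in somatostatin-only wells, which also held 42542 to 161545 of Ppy and Pyy. The tomato-positive plates stand apart: they supplied 210 and 223 of the 536 somatostatin-only wells but only 34 and 41 of the 1031 insulin-only wells. Somatostatin-only wells were shallow, with a median of 1582.5 UMIs against 4301 in insulin-only and 3499.5 in glucagon-only wells.

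The inducible HSP70 genes and Dnajb1 stood highest in somatostatin-only wells among the 3 main groups. Hspa1a there read 773, 492 and 687 CPM on plates sham 1 to 3 and 929.9, 596 and 635 on ppx 1 to 3. In insulin-only wells of the same plates it read 298, 185 and 186, then 335, 281 and 304. Every somatostatin-only value lay above every insulin-only value. Separation of this kind between groups, here and for Hspa1b below, was not counted over all genes, so nothing is read from it. The difference was 1.23 ± 0.15 (log2 fold change ± SE, 6 plates, edgeR adjusted p = 1.43e-14).

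Hspa1b showed the same order. Its somatostatin-only levels were 806, 363 and 522 CPM in sham and 935, 298 and 635 in ppx, against 215, 168 and 155 and then 244, 259 and 236 in insulin-only wells. The groups did not overlap here either, although ppx 2, with 9 somatostatin-only wells and 5 Hspa1b UMIs, came close. The difference was 1.38 ± 0.15 (edgeR adjusted p = 9.11e-18). Dnajb1, the partner of HSP70, measured 894, 621 and 522 CPM in sham and 1106, 1013 and 514 in ppx in somatostatin-only wells, and 394, 329, 340.1, 371, 452 and 445 in insulin-only wells. It was 0.85 ± 0.15 higher (edgeR adjusted p = 2.48e-07).

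Of the HSP90 genes, the constitutive Hsp90ab1 was higher in somatostatin-only wells by 0.45 ± 0.14 (edgeR adjusted p = 0.0106). It read 1223, 1277, 1210.0, 1229.9, 715 and 1299 CPM there and 733, 844, 753, 674, 794 and 858 in insulin-only wells, and only ppx 2 went the other way. The inducible Hsp90aa1 differed by 0.40 ± 0.16 (edgeR adjusted p = 0.0619). The remaining members gave smaller differences that missed the threshold: Hspe1 0.29 ± 0.18, Hspa8 0.17 ± 0.23, Dnaja4 -0.10 ± 0.24 and Hsph1 -0.11 ± 0.21. The differences of Hsph1 and Dnaja4, both inducible partners of HSP70, were smaller than their standard errors.

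In all, 4 of the 9 members were called higher in somatostatin-only wells and 0 lower, where 8.7% of 4321 genes tested were called higher and 21.7% were called in either direction. The members' median difference was 0.40, against -0.05 over all genes tested. Depth, sort and hormone content differ between these groups and were examined by refitting. Among wells of 1000 to 3000 UMIs the differences were 1.48 for Hspa1a, 1.61 for Hspa1b, 0.81 for Dnajb1 and 0.53 for Hsp90ab1, all 4 still called. This band dropped both tomato-positive plates, which held 2 insulin-only wells each, and kept sham 2, sham 3, ppx 2 and ppx 3. Those plates held 54, 15, 9 and 10 somatostatin-only wells in the band. Depth still differed there, with plate medians of 1710 to 2008.5 UMIs in somatostatin-only and 2080 to 2441 in insulin-only wells. Without the hormone genes the differences were 1.22, 1.37, 0.84 and 0.45, again all called. Without both tomato-positive plates Hspa1a (1.20) and Hspa1b (1.05) were called while Dnajb1 (0.55, adjusted p = 0.160) and Hsp90ab1 (0.31, adjusted p = 0.513) were not. Without sham 1, sham 2 or ppx 1 alone, Hsp90ab1 also missed the threshold, at 0.43, 0.42 and 0.42 (edgeR adjusted p = 0.0897, 0.0783 and 0.0553). Without a filter on low counts both Dnajb1 (0.50, adjusted p = 0.253) and Hsp90ab1 (0.12, adjusted p = 0.918) lost their calls.

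**Figure D1:**
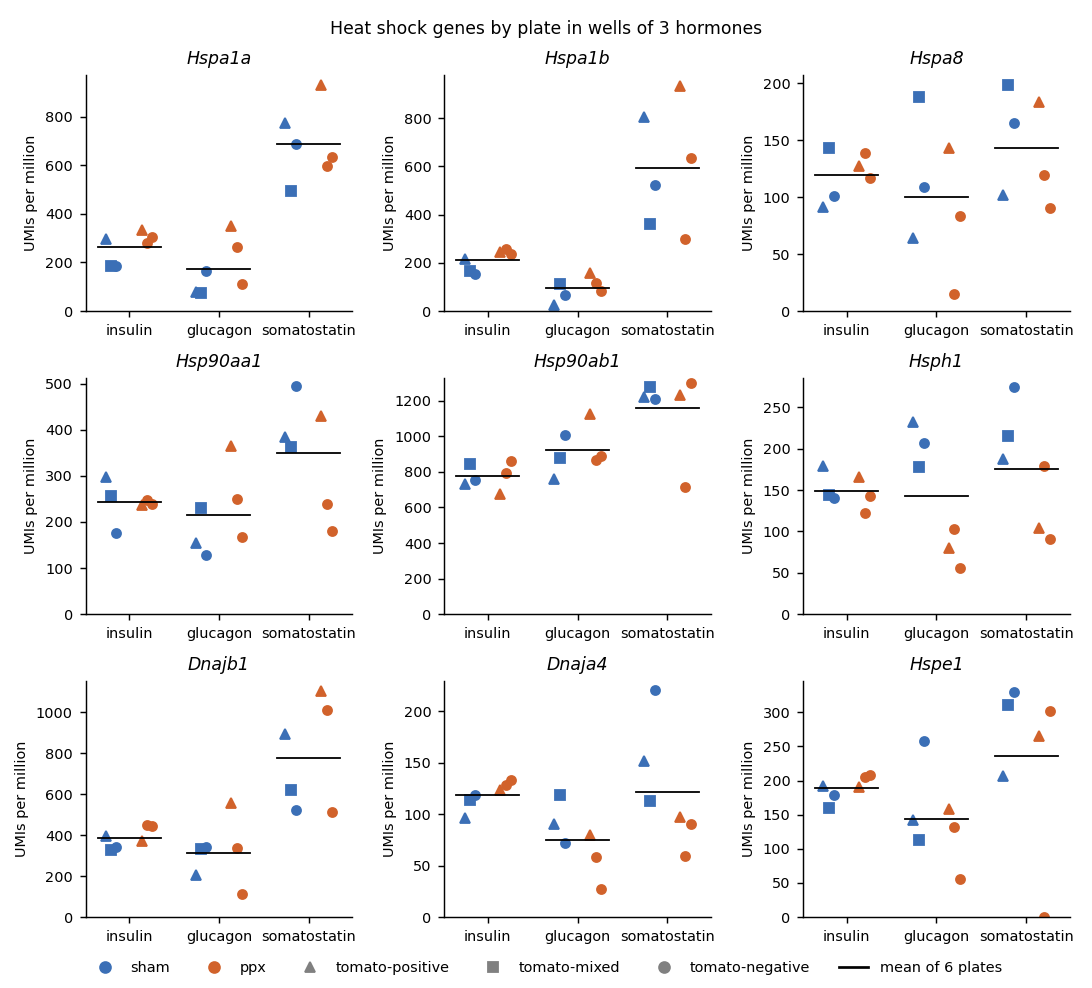
Levels of the 9 heat shock genes in CPM (vertical axis, starting at 0) in insulin-only, glucagon-only and somatostatin-only wells; each point is a plate, coloured by operation and shaped by tomato sort, and the line is the mean of 6 plates. Hspa1a, Hspa1b and Dnajb1 stand highest in the somatostatin column, while Hspa8, Hsph1 and Dnaja4 overlap between the 3 columns.

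Glucagon-only wells had the lowest mean levels of HSP70. Hspa1a read 77.3, 75.3 and 165 CPM in sham and 349.5, 264 and 111 in ppx, from 4 to 32 UMIs a plate. Hspa1b read 25.8, 113, 67.2, 159, 117 and 83.2. These levels all lay below the somatostatin-only levels of the same plates, by 2.03 ± 0.20 for Hspa1a and 2.49 ± 0.24 for Hspa1b (log2, edgeR adjusted p = 3.88e-10 and 1.45e-10).

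Dnajb1 was 1.12 ± 0.17 higher in somatostatin-only than in glucagon-only wells, Hsp90aa1 0.68 ± 0.22 and Hspe1 0.72 ± 0.27 (edgeR adjusted p = 1.45e-06, 0.0137 and 0.0349). Of the 7 members tested, 5 were called higher in somatostatin-only wells, where 15% of 769 genes were called higher and 35% in either direction. Hspa8 and Dnaja4 were too low to be tested. The Hsp90aa1 and Hspe1 calls were lost with DESeq2 (0.71 and 0.70, adjusted p = 0.0767 and 0.0951) and without a filter (0.58 and 0.57, adjusted p = 0.719 and 0.859). Hsp90aa1 was also lost without sham 1 (0.60, 0.0797) or sham 3 (0.43, 0.120). Hspe1 was lost without sham 2 (0.53, 0.219), ppx 1 (0.77, 0.0527) or ppx 3 (0.58, 0.106), without the plate block (0.52, 0.119) and among wells of 1000 to 3000 UMIs (0.78, 0.127). That band left only sham 2, sham 3 and ppx 2 in the fit. Hsp90ab1 missed the threshold at 0.29 ± 0.12 (0.0643) and was called without ppx 1 (0.38, 0.0254), without both tomato-positive plates (0.41, 0.0419) and without the hormone genes (0.31, 0.0487). Summed with the Snord14d row, Hspa8 could be tested and was higher in somatostatin-only wells by 0.43 ± 0.12 (adjusted p = 0.00706), and Snord14d alone by 0.44 ± 0.13 (0.00788).

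Between glucagon-only and insulin-only wells 2 members of 9 were called, in opposite directions, where 37.7% of 2721 genes were called. Hspa1b was lower in glucagon-only wells by 0.91 ± 0.21 on the log2 scale (edgeR adjusted p = 4.34e-04), and Hsp90ab1 was higher by 0.41 ± 0.11 (adjusted p = 0.00178). Hsp90ab1 measured 760.3, 876, 1008, 1128, 864 and 887 CPM in glucagon-only wells, above insulin-only wells on every plate. Hspa1a differed by -0.44 ± 0.19 (adjusted p = 0.0712) and was called without ppx 1 (-0.57, adjusted p = 0.0305) or ppx 2 (-0.58, 0.0183), with DESeq2's size factors in edgeR (-0.49, 0.0404) and without a filter (-0.83, 0.00145). Hsp90ab1 was not called without both tomato-positive plates (0.27, adjusted p = 0.210) without a filter (0.03, adjusted p = 0.923) or among wells of 1000 to 3000 UMIs (0.42, adjusted p = 0.202). So Hspa1b ran from glucagon-only through insulin-only to somatostatin-only wells with every step called over all plates, while for Hspa1a the lower step was not resolved. Among wells of 1000 to 3000 UMIs Hspa1b fell under the count filter between glucagon-only and insulin-only wells, so its lower step was not tested there. Only sham 2, sham 3 and ppx 2 held enough wells of both groups in that band.

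**Figure D2:**
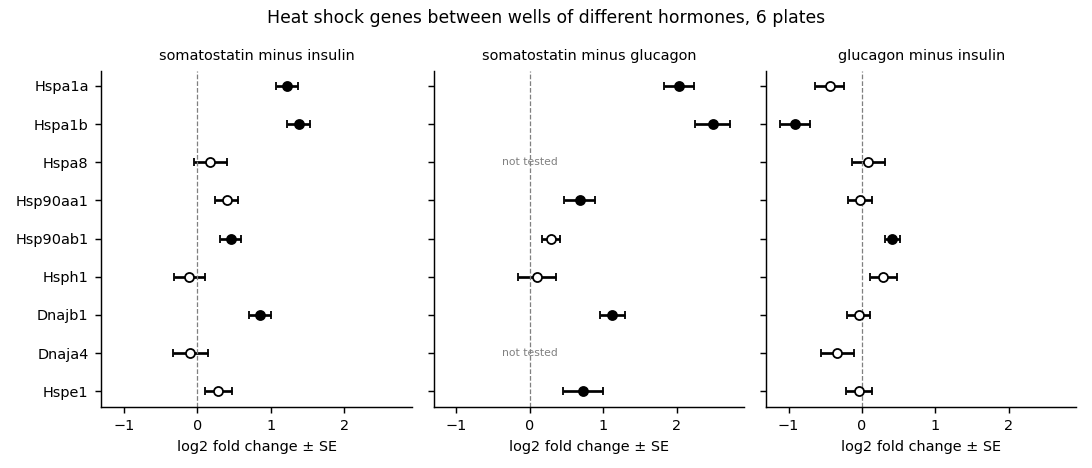
Log2 fold changes with their standard errors (horizontal axis) of the 9 heat shock genes between hormone groups over 6 plates; filled points have an edgeR adjusted p under 0.05. Hspa1a and Hspa1b lie farthest to the right against both other groups, at 1.23 and 1.38 against insulin-only and 2.03 and 2.49 against glucagon-only wells.

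The balance of inducible to constitutive members was summed per plate as UMIs of Hspa1a, Hspa1b, Hsph1, Dnajb1, Dnaja4 and Hsp90aa1 over UMIs of Hspa8, Hsp90ab1 and Hspe1. Hspe1 was counted as constitutive by choice, although its promoter window held matches to the heat shock element, and no ratio without it was computed. The same division was used below for pairs and for the spread over wells. The ratio was 1.45, 1.04, 1.08, 1.49, 1.31 and 1.27 in insulin-only wells of sham 1 to 3 and ppx 1 to 3. In somatostatin-only wells it was 2.09, 1.21, 1.60, 2.14, 2.86 and 1.27. In glucagon-only wells it was 0.813, 0.890, 0.714, 1.11, 1.12 and 0.541. Glucagon-only wells were below insulin-only wells on all 6 plates, and somatostatin-only wells were above insulin-only wells on 5, with ppx 3 level at 1.27. The means over plates were 0.864 ± 0.226, 1.27 ± 0.185 and 1.86 ± 0.627 (SD, n = 6) for glucagon-only, insulin-only and somatostatin-only wells. Some ratios rest on few counts. The 2.86 of somatostatin-only wells on ppx 2 came from 40 inducible and 14 constitutive UMIs, and the 0.541 of glucagon-only wells on ppx 3 from 20 and 37. Both sums are from the rows described above, so a split of Hspa8 reads would move the denominator.

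The other chaperone families were measured in the same fits. Over all 4321 genes tested between somatostatin-only and insulin-only wells, 376 were called higher and 561 lower in the former. Of 21 further cytosolic chaperones and co-chaperones tested, only Hspb1, a small heat shock protein, was called between somatostatin-only and insulin-only wells, and it was higher by 3.26 ± 0.33 (log2, edgeR adjusted p = 2.89e-21). None of the 7 tested subunits of the cytosolic chaperonin TRiC was called there; Cct2 (0.39 ± 0.20), Cct6a (0.20 ± 0.21) and Cct7 (0.19 ± 0.21) had the smallest p. Of 6 mitochondrial chaperones, Grpel1 (-1.11 ± 0.34) and Hspa9 (-0.82 ± 0.25) were lower. All 14 chaperones of the endoplasmic reticulum were lower in somatostatin-only wells, Sdf2l1 by -2.72 ± 0.36 and Hspa5, the HSP70 of that compartment, by -1.01 ± 0.15.

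Against insulin-only wells, glucagon-only wells were called higher for 4 of 14 cytosolic co-chaperones, namely Fkbp5 (0.98 ± 0.25), Chordc1 (0.85 ± 0.27), Ahsa1 (0.82 ± 0.25) and Ptges3 (0.48 ± 0.18). Over all 2721 genes, 516 were called higher and 510 lower in that comparison, so the co-chaperones' share is near the background. Cct2 of TRiC was 0.60 ± 0.17 higher, 1 of 7, and Hspa9 was lower (-0.65 ± 0.24), 1 of 4 mitochondrial chaperones. Chaperones of the endoplasmic reticulum were lower in 13 of 14. Over all 769 genes tested between somatostatin-only and glucagon-only wells, 115 were called higher and 154 lower in the former. Between somatostatin-only and glucagon-only wells, Fkbp4 (0.79 ± 0.25) and Dnaja1 (0.79 ± 0.30) were higher in the former, 2 of 6 co-chaperones tested, and 0 of 4 TRiC subunits (Cct5 -0.53 ± 0.28, Cct2 0.12 ± 0.24, Cct7 0.09 ± 0.25) and 0 of 9 chaperones of the endoplasmic reticulum (Dnajb9 0.44 ± 0.18, Dnajc3 0.28 ± 0.24, Calr -0.15 ± 0.16) were called.

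Immediate early genes, which dissociation also raises, were measured beside the members. Their 21 genes summed to 4761 to 6102 CPM in insulin-only, 7000.3 to 14384 in somatostatin-only and 11976 to 14956 in glucagon-only wells. Over all genes 37.7%, 21.7% and 35% were called in the comparisons that follow. In glucagon-only against insulin-only wells 14 of 16 tested were higher, Atf3 by 3.31 ± 0.13 and Fos by 1.04 ± 0.10, although Hspa1b was lower there. In somatostatin-only against insulin-only wells 11 of 16 were higher (Klf6 1.88 ± 0.25, Fos 0.41 ± 0.15) and 2 lower (Dusp1 -0.61 ± 0.16, Socs3 -3.57 ± 0.57). In somatostatin-only against glucagon-only wells 9 of 13 were lower, Klf4 by -3.04 ± 0.38 and Atf3 by -1.91 ± 0.24, while Hspa1a and Hspa1b were higher. Across the 3 groups the immediate early genes and HSP70 therefore did not stand in the same order; their part in the HSP70 differences was not tested.

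After partial pancreatectomy no member was called in any hormone group with edgeR, and DESeq2 called 0 members as well. With 3 plates per operation, a missed threshold does not show that a gene did not change. In insulin-only wells 21 of 8178 genes (0.257%) were called. At an unadjusted p under 0.05, 2 members, Hspa1a and Hspa1b, stood among 8.67% of genes. Hspa1b read 244, 259 and 236 CPM in ppx and 215, 168 and 155 in sham, so that every ppx plate lay above every sham plate. Its change was 0.47 ± 0.15 (edgeR adjusted p = 0.256). Dnaja4 did not overlap either, with means of 128 CPM in ppx and 110 in sham, although its change, given below, was smaller than its standard error. Non-overlap was not counted over all genes, so nothing is read from it. Hspa1a read 335, 281 and 304 in ppx and 298, 185 and 186 in sham, so that sham 1 overlapped ppx, and its change was 0.50 ± 0.17 (edgeR adjusted p = 0.308).

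Sham 1 is the tomato-positive sham plate, with 34 insulin-only wells. Without both tomato-positive plates Hspa1a changed by 0.58 (edgeR adjusted p = 0.0301) and was called, as it was with the sort as a covariate (0.50, adjusted p = 0.0400), a fit added after the data were seen. Over the 17 alternatives Hspa1a ranged from 0.36 to 0.68 and was called in 2, with adjusted p from 0.0301 to 0.825. Hspa1b ranged from 0.38 to 0.58 and was called in 0. The other members in insulin-only wells were Dnajb1 0.25 ± 0.13, Hspe1 0.17 ± 0.15, Dnaja4 0.15 ± 0.16, Hspa8 0.09 ± 0.17, Hsp90aa1 0.01 ± 0.16, Hsp90ab1 -0.03 ± 0.13 and Hsph1 -0.15 ± 0.17, none larger than 2 standard errors.

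In the same insulin-only wells 5 of 14 chaperones of the endoplasmic reticulum were called higher after ppx, where 0.257% of all genes tested were called. Sdf2l1 rose by 1.42 ± 0.22, Pdia4 by 1.15 ± 0.26, Creld2 by 1.01 ± 0.15, Hspa5 by 0.75 ± 0.14 and Hsp90b1 by 0.70 ± 0.15 (log2, edgeR adjusted p = 0.0011, 0.0487, 5.44e-04, 0.00843 and 0.0414). Hspa5 and Hsp90b1 are the reticulum's counterparts of Hspa8 and Hsp90ab1, for which the changes were 0.09 and -0.03. None of 29 genes on the list of cytosolic chaperones and co-chaperones (which also holds the heat shock factors Hsf1 and Hsf2), 7 TRiC subunits, 7 mitochondrial chaperones or 20 immediate early genes was called. The smallest p of these lists belonged to Fkbp5 (-0.51 ± 0.20), Bag3 (0.68 ± 0.32) and Hsf2 (-0.65 ± 0.42), to Cct5 (0.31 ± 0.16), Cct4 (-0.31 ± 0.19) and Cct7 (0.19 ± 0.16), to Hspa9 (-0.22 ± 0.16), Dnaja3 (-0.15 ± 0.20) and Grpel1 (-0.07 ± 0.20), and to Ier3 (1.73 ± 0.54), Klf2 (1.03 ± 0.34) and Klf6 (0.58 ± 0.23).

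In glucagon-only wells 1 of 776 genes (0.129%) was called. Hsph1 read 232, 177 and 207 CPM in sham and 79.4, 103 and 55.4 in ppx, without overlap, but the ppx values rest on 5, 7 and 2 UMIs. Its change was -1.17 ± 0.37 (edgeR adjusted p = 0.296). Hspa1a went the other way, 1.29 ± 0.39 (edgeR adjusted p = 0.268), and was called without ppx 3, which has 9 such wells (1.53, adjusted p = 0.0335). These 2 of 6 members tested had an unadjusted p under 0.05, where 7.35% of genes did. Of the other lists, Hsp90b1 (1.43 ± 0.37, adjusted p = 0.181) and Klf6 (1.35 ± 0.37, 0.192) came nearest to the threshold, and 0 of 4 co-chaperones, 4 TRiC subunits, 9 chaperones of the endoplasmic reticulum and 13 immediate early genes were called.

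In somatostatin-only wells 1 of 924 genes (0.108%) was called. Hsph1 again was lower in ppx, with 104, 179 and 90.7 CPM against 187, 216 and 275 in sham, although ppx 2 and ppx 3 held 3 UMIs each. Its change was -0.90 ± 0.33 (edgeR adjusted p = 0.801), the only member of 8 with an unadjusted p under 0.05, where 4% of genes had one. Dnaja4, too low to be tested here, did not overlap between the operations, with means of 161 CPM in sham and 82.3 in ppx. Dnajb1 (0.44 ± 0.24), Hspa1b (0.42 ± 0.27) and Hspa1a (0.35 ± 0.23) stayed within 2 standard errors of 0. Of 12 immediate early genes Zfp36 (1.10 ± 0.30), Fos (0.80 ± 0.24) and Klf6 (0.94 ± 0.29) had the smallest p (adjusted p = 0.289, 0.337 and 0.399), and 0 were called, as were 0 of 7 co-chaperones, 4 TRiC subunits and 9 chaperones of the endoplasmic reticulum.

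Whether the operation acted differently between groups was tested as an interaction. No member was called against glucagon-only wells, where 1 of 3606 genes (0.0277%) was, nor against somatostatin-only wells, where 0 of 5728 (0%) were and 152 had an unadjusted p under 0.05. DESeq2 called 0 genes in both. The largest member terms were those of Hsph1, -1.14 ± 0.41 (edgeR adjusted p = 0.839) and -1.02 ± 0.46 (adjusted p = 0.999), with unadjusted p under 0.05 in both. The Hspa1a terms were 0.66 ± 0.37 and -0.28 ± 0.31. Differences of this size between groups were not resolved with 3 plates per operation.

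**Figure D3:**
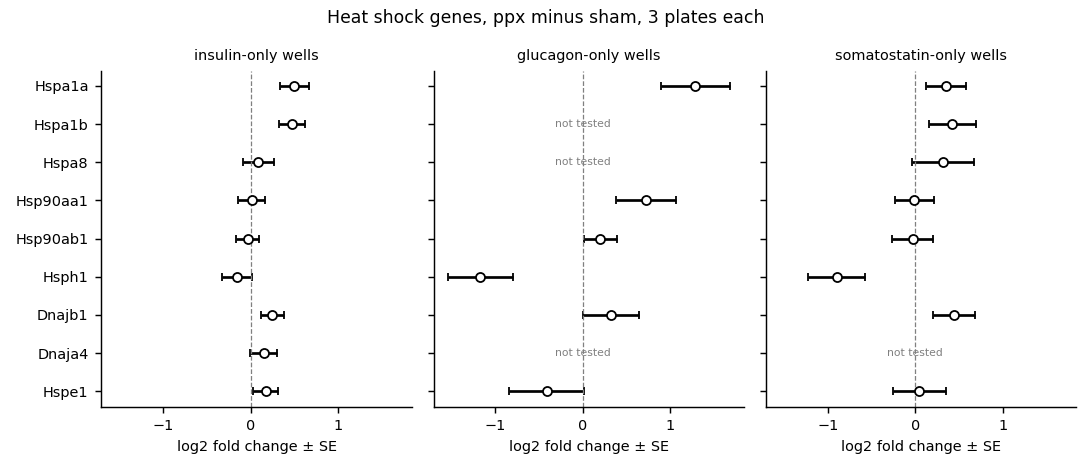
Log2 fold change from sham to ppx with its standard error (horizontal axis) for each heat shock gene in 3 hormone groups, 3 plates per operation; open points have an edgeR adjusted p of 0.05 or more, and genes too low to test are marked. All points are open; in insulin-only wells Hspa1a (0.50) and Hspa1b (0.47) lie farthest from 0.

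Coupling within wells was described after thinning each well to an equal number of UMIs. In insulin-only wells at 2000 UMIs (4 plates, 871 wells, 85 shallower wells left out) Hspa1a and Hspa1b had a mean Pearson r of 0.20, from 0.14 to 0.25 over plates. Their sum had a mean r of 0.13 with Dnajb1, from 0.08 to 0.17. The 15 pairs of inducible members had a median r of 0.024, and the 18 pairs of an inducible with a constitutive member 0.035. With counts this sparse such values are weak, and the wells of a plate share its handling.

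Somatostatin-only wells were described mainly at 1000 UMIs (3 plates, 442 wells, 55 left out), since at 2000 UMIs only ppx 1 held enough of them. At 1000 UMIs Hspa1a and Hspa1b had a mean r of 0.39 (0.24 to 0.49), Hspa1a and Dnajb1 0.29 (0.22 to 0.37), and Hspa1b and Dnajb1 0.25 (0.17 to 0.32). Insulin-only wells at the same depth (946 wells) gave 0.13 for Hspa1a with Hspa1b, and also 0.13 for Hsph1 with Hspe1 (-0.02 to 0.28 over plates). The thinned level also differed, with 1.02 to 2.07 UMIs of Hspa1a and Hspa1b a well on the somatostatin-only plates and 0.29 to 0.53 on the insulin-only plates, so the r values are set side by side without a comparison. The mean r of Hsp90ab1, the constitutive HSP90, with the other members ran from -0.09 to 0.09 in somatostatin-only wells at 1000 UMIs. On ppx 1 at 2000 UMIs (52 wells) Hspa1a and Hspa1b had an r of 0.33, Hspa1b and Dnajb1 0.34, and Hspa1b and Hsp90ab1 0.32. The highest pair on that plate was Hspa1a with Hspe1, at 0.35.

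**Figure D4:**
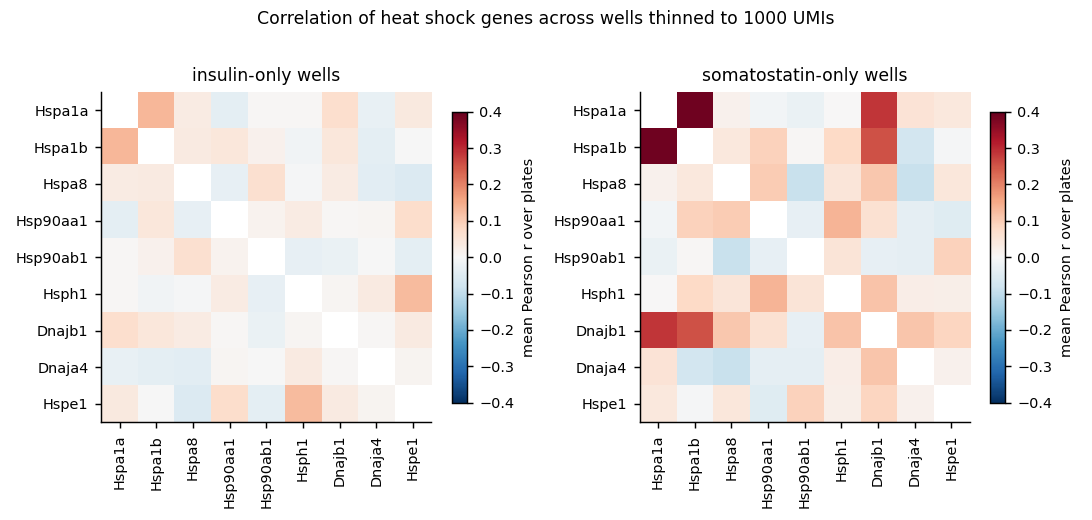
Mean Pearson r over plates between pairs of heat shock genes across wells thinned to 1000 UMIs (colour scale from -0.4 to 0.4), insulin-only on the left and somatostatin-only on the right. The block of Hspa1a, Hspa1b and Dnajb1, at 0.25 to 0.39, stands out in the somatostatin-only panel.

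The spread of HSP70 over wells was described at the same depth. The variance of summed Hspa1a and Hspa1b UMIs over their mean, which is 1 for pure counting noise, was 3.52, 6.26 and 3.11 in somatostatin-only wells of sham 1, sham 2 and ppx 1 at 1000 UMIs. In insulin-only wells of sham 2, sham 3, ppx 2 and ppx 3 it was 1.48, 1.41, 1.52 and 1.41. For the constitutive members summed it was 1.28, 0.96 and 1.22 in the somatostatin-only wells and 0.84 to 1.41 in the insulin-only wells. The highest single wells held 12, 17 and 14 HSP70 UMIs in the somatostatin-only group. Because the mean level enters this ratio, the groups are not ranked by it: the best-filled 10% of wells held 48.0, 60.3 and 36.5% of the HSP70 UMIs on the somatostatin-only plates and 48.6 to 61.4% on the insulin-only plates.

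**Figure D5:**
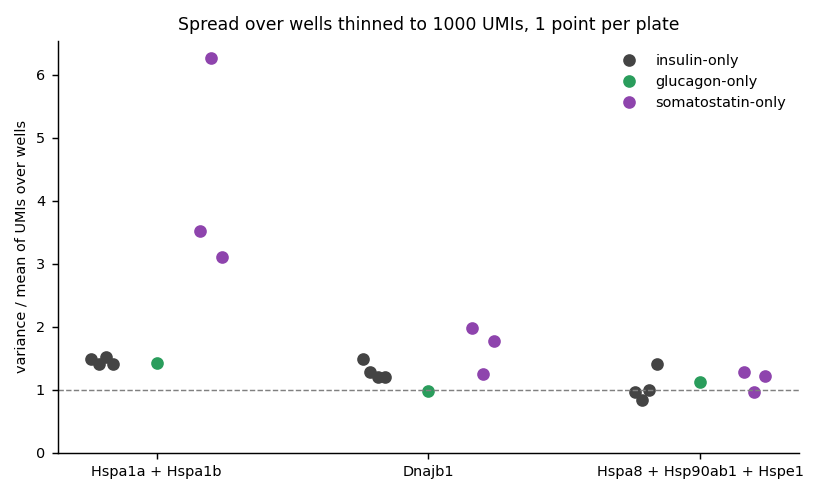
Variance over mean of UMIs across wells thinned to 1000 UMIs (vertical axis, 1 point per plate; the dashed line at 1 is pure counting noise) for Hspa1a plus Hspa1b, Dnajb1, and the 3 constitutive members summed. The somatostatin-only plates lie at 3.11 to 6.26 for Hspa1a plus Hspa1b and near 1 for the constitutive members.

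The genes most like the summed inducible members across insulin-only wells were sought among 1037 genes seen in at least 20% of wells thinned to 2000 UMIs. The 8 with the highest mean r over 4 plates were Fos (0.17), Egr1 (0.14), Jun (0.13), Actb (0.12), Btg2 (0.12), Cfl1 (0.12), Snord14d (0.12) and Fosb (0.11). Of these, 5 are on the list of immediate early genes, of which 10 were among the genes compared. The other 5 were Dusp1 and Ier2 at ranks 11 and 12, Zfp36 at 119, Junb at 301 and Jund at 704. The list's median r was 0.10, against 0.0018 over all genes compared. These are weak values from sparse counts, given as a description.

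Outside the 3 main groups, HSP70 was measured in the 113 hormone-low wells, which lay under the insulin, somatostatin and glucagon thresholds and under 1% Ppy. Hspa1a read 0, 1556 and 881 CPM in sham 1 to 3 and 35.6, 674 and 1654 in ppx 1 to 3, and Hspa1b 0, 2359.6, 701, 71.2, 786 and 1538. Sham 1 and ppx 1 were the low plates. Their hormone-low wells held 111751 and 172484 CPM of ghrelin (Ghrl), the hormone of epsilon cells, and 139 and 107 of 5 endothelial markers, while the other plates held 0 of Ghrl, 2384 to 5279 of the endothelial and 5166 to 15212 of the macrophage markers. With 0 to 54 Hspa1a UMIs a plate these levels are descriptions, and the part of the cell makeup in them was not tested. In insulin-only, glucagon-only and somatostatin-only wells the endothelial markers summed to at most 110.0 CPM and the macrophage markers to at most 129. A further 65 wells under the same hormone thresholds held at least 1% Ppy (Ppy-only). Hspa1a there was 193 ± 71.4 CPM and Hspa1b 119 ± 140 (mean ± SD, 6 plates).

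Wells that held both insulin and somatostatin (145), which the series presents as joined beta and delta cells, read 333, 282 and 205 CPM of Hspa1a in sham and 367, 248 and 741 in ppx. On 5 of the 6 plates this was below the somatostatin-only level, and on ppx 3, from 5 wells and 18 UMIs, above it. Dnajb1 read 452, 550.3, 308, 476, 806 and 1111, below the somatostatin-only wells on 5 plates.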

How the data were processed

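Raw UMI counts were deposited by the authors for every well, 1 table to a plate; reads were aligned with HISAT 0.1.6 to mm10, per the submitters' processing notes. For the counting tool and the gene annotation no version is given in the sources used here. ERCC rows (92, 3 UMIs in all) were left out. Wells under 500 UMIs (96) or over 20% mitochondrial UMIs (93) were dropped; no doublet caller was run, because the series studies joined cells. No well name was shared between plates.

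A well held insulin (Ins1 and Ins2), somatostatin or glucagon from 3.27%, 1.34% or 2.67% of its UMIs, midpoints on the log2(CPM + 1) scale between the hormone's median in wells it led and its highest median in wells led by another hormone. Wells under all of these thresholds were Ppy-only from 1% Ppy UMIs and hormone-low below it. UMIs were summed per plate and group (at least 5 wells), so the plate is the replicate. The sums were tested with edgeR 4.0.16 (R 4.3.3; TMM, filterByExpr, quasi-likelihood F test, plate as a block between groups), with Benjamini-Hochberg adjustment over all genes tested and a threshold of 0.05. DESeq2 1.42.0 was an alternative. Standard errors are the log2 fold change over the root of F. For coupling, wells were thinned at random to 2000 or 1000 UMIs on plates with at least 50 such wells, and Pearson r of log2(count + 1) was averaged over plates. The fit was tested on simulated data, where most 2-fold changes went uncalled, so missed thresholds say little about changes of that size.

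All 9 genes were described in every comparison. Of further gene lists, those past the threshold were named, or otherwise the 3 with the smallest p (examples where a list was long), and the 8 genes most like the inducible members. The members and lists were chosen with earlier results of these data known. Promoters are from RefSeq and overlaps from GENCODE.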

Additional observations from a re-analysis of the deposited data

Results flagged for a closer look

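The Snord14d row lies outside the 9 genes but inside an intron of Hspa8, on the same strand. It held 7084 UMIs in the kept wells, against 1005 for Hspa8. It measured 738 to 915 CPM in insulin-only, 333 to 906 in glucagon-only and 665 to 1320.0 in somatostatin-only wells. Between somatostatin-only and insulin-only wells it differed by 0.27 ± 0.14 (log2, edgeR adjusted p = 0.195), between somatostatin-only and glucagon-only wells by 0.44 ± 0.13 (adjusted p = 0.00788, higher in somatostatin-only wells), and from sham to ppx in insulin-only wells by 0.07 ± 0.13 (adjusted p = 0.936). Whether these reads come from the small RNA or from Hspa8 transcripts was not tested.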

How the results depend on the processing

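Of 1004 refitted values of single members, 907 kept their direction and side of the threshold, 15 became called, 21 lost their call and 61 changed sign. Of the 61, 0 were called in either fit. Of 136 refitted counts and means, 124 stayed close. With the operation in insulin-only wells, the members called went from 0 to 1 (Hspa1a) without both tomato-positive plates and with the sort as a covariate; in glucagon-only wells from 0 to 1 without ppx replicate 3. Glucagon-only against insulin-only calls went from 2 to 1 without both tomato-positive plates and to 0 among wells of 1000 to 3000 UMIs (633 genes tested). There Hsp90ab1 stayed at 0.42 and Hspa1b was under the count filter and not tested. Somatostatin-only against insulin-only calls went from 4 to 2 without a filter and to 2 without both tomato-positive plates, and somatostatin-only against glucagon-only calls from 5 to 3 with DESeq2 and 3 without a filter; the causes were not tested. Leaving out single plates gave 3 to 5, 2 to 3 and 4 to 5 members between groups, and 0 to 1 for the operation in glucagon-only wells and 0 in the others. The mean r of HSP70 with Dnajb1 in insulin-only wells fell to 0.0795 at 1000 UMIs (0.115 to 0.144 without single plates). Counting Hsp90aa1 as constitutive gave mean ratios of 0.856 in insulin-only, 0.569 in glucagon-only and 1.31 in somatostatin-only wells, against 1.27, 0.864 and 1.86. Summing Snord14d with Hspa8 changed no call of a member tested alone, and added Hspa8 to the members called between somatostatin-only and glucagon-only wells (6 against 5). The replicate block gave 0 members called in each hormone group, with 46 genes against 21 in insulin-only wells, 4 against 1 in somatostatin-only and 0 against 1 in glucagon-only wells. Deviations of same-numbered sham and ppx plates correlated at 0.063, 0.026 and 0.045, and those of differently numbered plates at -0.057 to 0.042. Values this weak do not settle whether the numbers pair plates. Genes called in insulin-only wells ranged from 5 to 44 without single plates.

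The uncalled values that changed sign (log2) are given with the value as reported in parentheses. A range covers the fits without single plates. Between groups, a positive value here means higher in the group named second. An interaction value is the change in the named group minus the change in insulin-only wells. Hsph1 in glucagon-only against somatostatin-only wells (0.095) gave -0.0037 without a filter, -0.15 without the plate block and ranged from -0.011 to 0.36 without single plates. Dnajb1 in insulin-only against glucagon-only wells (-0.044) ranged from -0.16 to 0.065 without single plates. Hsp90aa1 in insulin-only against glucagon-only wells (-0.029) ranged from -0.17 to 0.068 without single plates. Hspa8 in insulin-only against glucagon-only wells (0.084) gave -0.13 with DESeq2, -0.30 without a filter and ranged from -0.25 to 0.27 without single plates. Hspe1 in insulin-only against glucagon-only wells (-0.042) gave 0.0057 in wells of 1000 to 3000 UMIs and ranged from -0.38 to 0.040 without single plates. Hsph1 in insulin-only against glucagon-only wells (0.29) gave -0.10 without a filter. Dnaja4 in insulin-only against somatostatin-only wells (-0.096) ranged from -0.26 to 0.11 without single plates. Hspa8 in insulin-only against somatostatin-only wells (0.17) gave -0.096 without a filter. Hspe1 in insulin-only against somatostatin-only wells (0.29) gave -0.0046 without a filter. Hsph1 in insulin-only against somatostatin-only wells (-0.11) gave 0.014 with round thresholds, 0.32 without both tomato-positive plates, 0.022 without the plate block and ranged from -0.32 to 0.18 without single plates. Dnajb1 in the interaction with glucagon-only wells (-0.034) gave 0.013 with DESeq2's size factors, 0.028 with round thresholds and ranged from -0.57 to 0.30 without single plates. Hsp90ab1 in the interaction with glucagon-only wells (0.18) gave -0.047 without a filter, -0.18 without both tomato-positive plates and ranged from -0.0071 to 0.28 without single plates. Hspa1b in the interaction with glucagon-only wells (0.18) gave -0.035 without a filter, -0.42 without both tomato-positive plates and ranged from -0.17 to 0.76 without single plates. Dnajb1 in the interaction with somatostatin-only wells (0.091) gave -0.39 without both tomato-positive plates and ranged from -0.39 to 0.33 without single plates. Hsp90ab1 in the interaction with somatostatin-only wells (-0.16) ranged from -0.39 to 0.13 without single plates. Hspa1b in the interaction with somatostatin-only wells (-0.11) ranged from -0.56 to 0.21 without single plates. Dnajb1 in the operation in glucagon-only wells (0.32) gave -0.34 without both tomato-positive plates and ranged from -0.21 to 0.62 without single plates. Hsp90ab1 in the operation in glucagon-only wells (0.20) gave -0.039 without a filter and -0.034 without both tomato-positive plates. Hsp90aa1 in the operation in insulin-only wells (0.011) gave -0.0076 with DESeq2 and ranged from -0.21 to 0.14 without single plates. Hsp90ab1 in the operation in insulin-only wells (-0.034) ranged from -0.081 to 0.0025 without single plates. Hspa8 in the operation in insulin-only wells (0.089) gave -0.0031 without both tomato-positive plates and ranged from -0.031 to 0.30 without single plates. Hsp90aa1 in the operation in somatostatin-only wells (-0.013) ranged from -0.72 to 0.054 without single plates. Hsp90ab1 in the operation in somatostatin-only wells (-0.028) ranged from -0.18 to 0.11 without single plates. Hspa1b in the operation in somatostatin-only wells (0.42) ranged from -0.0011 to 0.78 without single plates. Hspa8 in the operation in somatostatin-only wells (0.32) gave -0.27 summed with Snord14d. Hspe1 in the operation in somatostatin-only wells (0.044) gave -0.21 with DESeq2, -0.17 without a filter, -0.015 in wells of at least 1000 UMIs, -0.0044 with round thresholds, -0.54 without both tomato-positive plates and ranged from -0.45 to 0.16 without single plates.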
